A study of Mus musculus with 8 samples.

Results

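The family of miR-148 and miR-152 consists of the mouse guide strands mmu-miR-148a-3p, mmu-miR-148b-3p and mmu-miR-152-3p (below without the species prefix), which were followed here across cells and extracellular vesicles (EVs) and across control and PCBP2-silenced conditions. Its members were taken as the rows of these names in the deposited table of mature miRNAs, and all 3 were found among 1978 mouse miRNAs and 180 that passed the detection filter. The libraries were made from 3A cells, a nontumorigenic murine hepatocyte line, and from the EVs in medium collected after 72 h of culture. Cells of the control condition (shCTR) carried a scrambled shRNA, and those of the silenced condition (shPCBP2) carried an shRNA against PCBP2, an RNA-binding protein that the study examined for a role in retaining miRNAs in cells. Both shRNAs were delivered with the pSUPER retro puro retroviral vector and maintained by puromycin selection, so that all groups share the vector and the selection. The shPCBP2 line was made for the study and the shCTR line had been generated earlier. Differences between the lines and effects of silencing therefore cannot be told apart. Cells and EVs of either shRNA gave 4 conditions with 2 biological replicates each, all from stable populations. The 3A culture medium held FBS, which was EV-depleted for the collection of vesicles, and the species of origin of a read cannot be told from the counts.

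A miRNA guide strand directs Argonaute proteins to messenger RNAs, mainly through its seed, the bases 2 to 8 from the 5′ end, and miRNAs with the same seed are expected to share many targets. The family is known for repressing the DNA methyltransferase Dnmt1. miR-148a is abundant in adult liver, where it has been linked to hepatocyte maturation and, through the LDL receptor and the cholesterol exporter ABCA1, to cholesterol handling. The mature sequences are shown because the members differ in only a few bases outside the seed while their distribution between cells and EVs differs. They are from RefSeq (GRCm38.p6), written 5′ to 3′, with the seed in capitals.
miR-148a-3p: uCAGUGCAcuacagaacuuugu
miR-148b-3p: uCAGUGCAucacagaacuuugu
miR-152-3p: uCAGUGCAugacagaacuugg
Among 1679 mature mouse sequences matched by name to the table, these 3 are the only ones with this seed. Counting positions from 1 at the 5′ end, miR-148b-3p differs from miR-148a-3p by C9U and U10C, miR-152-3p differs from miR-148a-3p by C9U, U10G and U20G, and miR-152-3p differs from miR-148b-3p by C10G and U20G. miR-148a-3p and miR-148b-3p are 22 bases long and miR-152-3p 21 bases, so length should have little effect on a comparison of their read counts. Other effects of the sequence on read counts were not measured, so the order of the members by reads may not be their order by amount. Because the first 8 bases are shared by all members and trimmed reads as short as 10 bases were kept, the assignment of a read to a member rests on few bases.

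miR-148a-3p lies at chr6:51269829-51269850 on the minus strand, within the hairpin gene Mir148a, and no protein-coding gene of the GENCODE annotation overlaps it; the nearest protein-coding gene, Nfe2l3, is 162820 bases away. miR-148b-3p lies at chr15:103285185-103285206 on the plus strand, in an intron of Copz1 on the same strand. miR-152-3p lies at chr11:96850439-96850459 on the plus strand, in an intron of Copz2 on the same strand. Copz1 and Copz2 are paralogs that encode zeta subunits of the COPI vesicle coat. The study is concerned with retention (CELL) and export (hEXO) motifs in miRNAs. The core CELL letters AUUA and AUUG, and the letters GGCU taken here for the core of hEXO, were searched on the miRNA strand, and none occurs in any member. They occur in 2.50%, 6.79% and 13.3% of the 1679 mature sequences, and the absence of these letters says nothing about binding of the proteins. The study scanned miRNAs with probability matrices for hEXO, the core CELL motif and an extended CELL motif. That scan was not run here, so the absence of these letters does not show that the motifs are absent.

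Between 26391248 and 38166798 reads were counted per library. The spike-in cel-miR-39 took 57.4% to 66.9% of them in cell libraries and 97.6% to 98.4% in EV libraries, which left 8745848 to 12732173 mouse miRNA reads in cells and 503070 to 687592 in EVs. Of the hepatocyte markers, miR-194-5p had 218474 to 342726 reads and miR-192-5p 10976 to 20510 reads in the cell libraries, whereas miR-122-5p, the most characteristic of them, had only 356 to 485. In the EV libraries, miR-122-5p had more reads than in cells, 795 to 2327. The other markers had fewer there, 3784 to 5454 for miR-194-5p and 0 to 1058 for miR-192-5p. Small RNA libraries hold no measure of PCBP2 mRNA. Levels are given below as reads per 1000000 spike-in reads (spike-in RPM), which estimates the amount relative to the spike-in in each preparation. Log2 ratios and changes are fitted on the spike-in scale, and adjusted p-values are from edgeR's quasi-likelihood test, corrected by the Benjamini-Hochberg method across the tested miRNAs. From these counts, fewer vesicles and fewer copies per vesicle cannot be told apart. Poisson and Wilson intervals cover only the counting error of reads within a library, and not the variation between libraries. No molecular identifiers were available to tell molecules from PCR copies, so the counting error of molecules is not covered either.

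In cells, the family was made up almost entirely of miR-148b-3p and miR-152-3p. miR-152-3p was counted 6825 and 6107 times in the shCTR libraries and 5411 and 7427 times in the shPCBP2 libraries. For miR-148b-3p these counts were 6167 and 5340 with shCTR, and 4138 and 4963 with shPCBP2. For miR-148a-3p they were 75 and 42 with shCTR, and 7 and 32 with shPCBP2. The order in cells was therefore miR-152-3p, miR-148b-3p and miR-148a-3p in each of the 4 libraries, with the first 2 close together and miR-148a-3p far below. Among all mouse miRNAs of a library, miR-152-3p ranked 82 to 90, miR-148b-3p 89 to 94 and miR-148a-3p 286 to 440 by reads in cells.

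In EVs, miR-148a-3p moved from the lowest place to the highest or second, and miR-152-3p stayed above miR-148b-3p. miR-148a-3p was counted 548 and 650 times in the shCTR libraries and 964 and 620 times in the shPCBP2 libraries. For miR-152-3p these counts were 693 and 573 with shCTR, and 303 and 372 with shPCBP2. For miR-148b-3p they were 316 and 127 with shCTR, and 1 and 217 with shPCBP2. miR-148b-3p was the lowest member in all 4 EV libraries, and miR-148a-3p was the highest in all but EV shCTR replicate 1. By reads, miR-148a-3p ranked 71 to 91 among the mouse miRNAs of an EV library, against 286 or lower in cells. The ranks of miR-152-3p in EVs were 81 to 112. Ranks in EVs and in cells are not on the same scale, since 183 to 202 mouse miRNAs had reads in an EV library. In a cell library, 466 to 599 had reads.

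**Figure D1:**
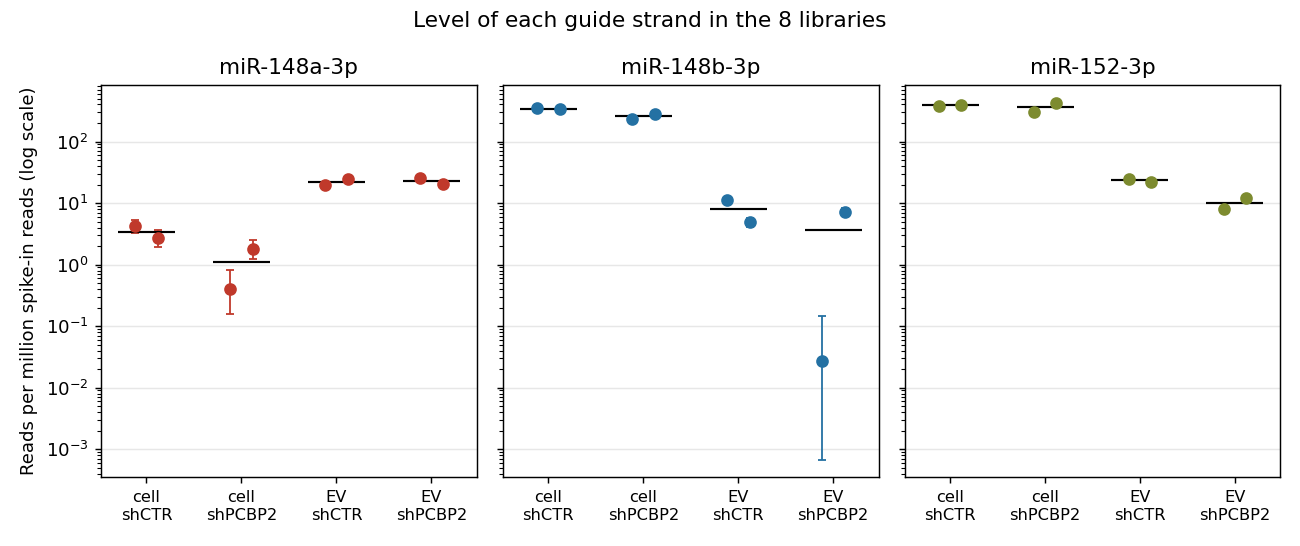
Level of each member in the 8 libraries, in spike-in RPM on a log axis, by condition. Points are libraries, vertical bars the 95% exact Poisson interval of the count, and horizontal lines the mean of 2 libraries. miR-148a-3p sits between 0.397 and 4.21 in cells and between 19.7 and 25.7 in EVs, whereas the other members are lower in EVs than in cells, with EV shPCBP2 replicate 1 of miR-148b-3p at 0.0266.

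The composition of the family does not depend on how libraries are scaled against each other, since it is a share of reads within a library. In cells, miR-148a-3p made up 0.574% and 0.366% of the family reads with shCTR and 0.0733% and 0.258% with shPCBP2. In EVs it made up 35.2% (95% Wilson interval 32.9 to 37.6) and 48.1% (45.5 to 50.8) with shCTR, and 76.0% (73.6 to 78.3) and 51.3% (48.5 to 54.1) with shPCBP2. The EV and cell libraries did not overlap. The mean share was 52.7% ± 17.1 (SD, n = 4) in EVs and 0.318% ± 0.209 (SD, n = 4) in cells, a difference of 52.3 percentage points (p = 0.0286, two-sided exact permutation test of 4 EV against 4 cell libraries). This p is the smallest possible for 4 against 4 libraries, and it depends on pooling the shRNA arms, which the test did not keep apart. The SD in EVs includes the difference between the arms, whose mean shares were 41.7% with shCTR and 63.7% with shPCBP2. With any library left out, the smallest possible p is 0.0571, and the difference ranged from 44.6 without EV shPCBP2 replicate 1 to 58.2 without EV shCTR replicate 1.

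**Figure D2:**
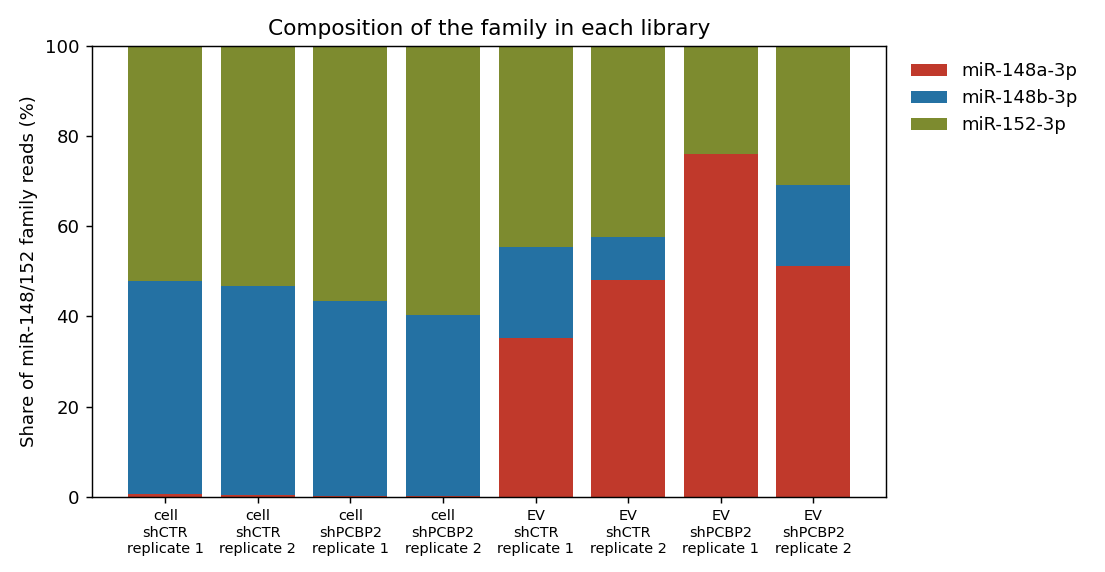
Share of the family's reads taken by each member (%, stacked bars from 0 to 100) in each of the 8 libraries. miR-148a-3p is at most 0.574% in the cell libraries and at least 35.2% in the EV libraries, and the share of miR-148b-3p falls to 0.0789% in EV shPCBP2 replicate 1.

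The shares of miR-152-3p and miR-148b-3p were both lower in EVs, where the higher share of miR-148a-3p leaves less for them. The share of miR-152-3p was 52.2% and 53.2% in shCTR cells and 56.6% and 59.8% in shPCBP2 cells. Its share in EVs was 44.5% and 42.4% with shCTR, and 23.9% and 30.8% with shPCBP2. The share of miR-148b-3p in cells was 47.2% and 46.5% with shCTR and 43.3% and 39.95% with shPCBP2. In EVs the share of miR-148b-3p was 20.3% and 9.41% with shCTR, and 0.0789% and 17.9% with shPCBP2. Relative to miR-152-3p alone, whose reads are those of the member nearest to it in cells, miR-148b-3p had a read ratio of 0.904 and 0.874 in shCTR cells, and of 0.765 and 0.668 in shPCBP2 cells. In EVs the ratio was 0.456 and 0.222 with shCTR, and 0.00330 and 0.583 with shPCBP2. Each EV library was below each cell library, and the ratio was lower in shPCBP2 than in shCTR cells. These ratios were computed after the counts had been seen and were not tested.

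Relative to the spike-in, all members together reached 733 and 730 spike-in RPM in shCTR cells and 542 and 697 in shPCBP2 cells. In EVs they reached 56.1 and 51.9 with shCTR, and 33.8 and 39.8 with shPCBP2. As a share of mouse miRNA reads the family was 0.0982% to 0.109% in cells and 0.205% to 0.244% in EVs. The seed was thus a larger part of the EV miRNA reads than of the cell reads, while its level relative to the spike-in was lower in EVs.

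In shCTR, EVs were compared with cells to ask how the members are partitioned when PCBP2 is present. miR-148a-3p was higher in EVs, with 4.21 and 2.67 spike-in RPM in cells and 19.7 and 24.97 in EVs, which gave a log2 EV/cell ratio of 2.70 with a standard error of 1.00. This missed the threshold of 0.05 (adjusted p = 0.0535, edgeR). miR-148b-3p had 346 and 339 in cells and 11.4 and 4.88 in EVs, a log2 ratio of -5.40 (standard error 2.04), which missed it too (adjusted p = 0.0561, edgeR). miR-152-3p had 383 and 388 in cells and 24.96 and 22.0 in EVs, and its log2 ratio of -4.04 (standard error 0.48) passed (adjusted p = 0.000348, edgeR). The EV and cell libraries did not overlap for any member, with 1 higher and 2 lower in EVs, as was the case for 10.6% and 83.9% of the tested miRNAs. Hence 1 of 3 members was called, and it was lower, where 66.1% of the tested miRNAs were called in either direction, 59.4% lower and 6.67% higher.

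For miR-148a-3p and miR-148b-3p, the adjusted p lay near the threshold and its side depended on the fit. With miR-148a-3p, 10 of 18 alternatives gave an adjusted p under 0.05 in shCTR, and the adjusted p ranged from 0.000619 with the total mouse miRNA count to 0.223 without cell shCTR replicate 2 (edgeR). It was between 0.0431 and 0.0458 when any of the 4 shPCBP2 libraries was left out. With miR-148b-3p, 4 of the 10 alternatives that kept all libraries of the compared groups gave an adjusted p under 0.05. The adjusted p ranged there from 0.00181 with DESeq2 to 0.898 with the total mouse miRNA count (edgeR). Its log2 ratio in shCTR stayed at -5.40 without EV shPCBP2 replicate 1 or replicate 2, the libraries with 1 and 217 counts.

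The size of an EV/cell ratio on the spike-in scale depends on the amount of RNA in each preparation, and the median log2 ratio of all tested miRNAs was -4.93 in shCTR and -4.90 in shPCBP2. Against this median, miR-148a-3p was higher by 7.63 in shCTR and 9.28 in shPCBP2 on the log2 scale, and it ranked 13 and 12 from the top among 180 tested miRNAs. miR-152-3p stood at 0.90 in shCTR and -0.26 in shPCBP2 from the median, and miR-148b-3p at -0.46 and -1.27. In shCTR, scaling by TMM, by median-of-ratios size factors or by all mouse miRNA reads moved the median to -0.17, -0.15 and 0.06, and the distance of miR-148a-3p from it stayed at 7.63 or 7.64. With these scalings, the log2 ratio of miR-152-3p in shCTR became 0.73, 0.74 and 0.95. The lower level of miR-152-3p in EVs therefore holds relative to the spike-in and not relative to the other miRNAs. The log2 ratio of miR-148b-3p in shCTR became -0.65, -0.67 and -0.45, and it was called with none of these scalings. miR-148a-3p was higher in EVs than in cells with every scaling tried.

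**Figure D3:**
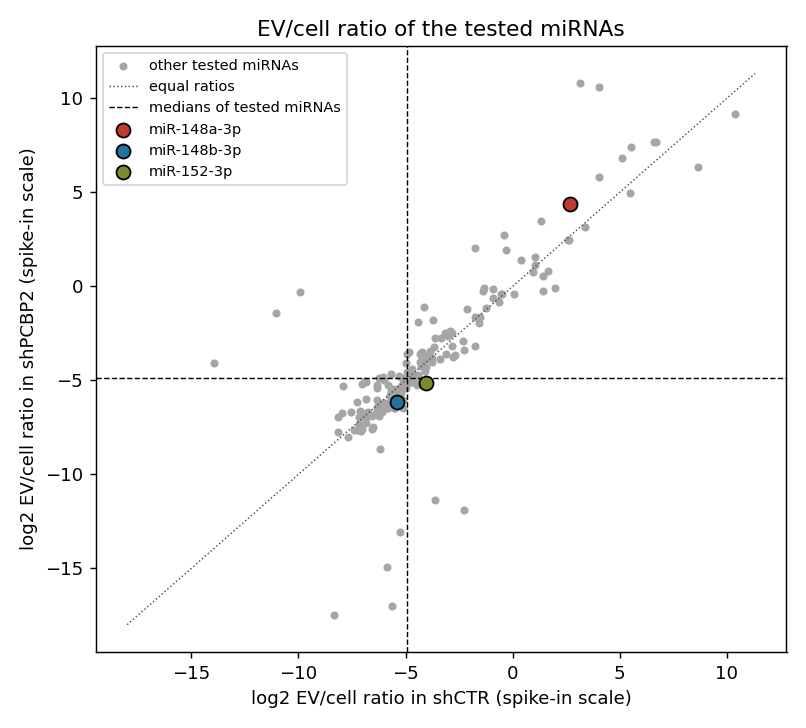
Fitted log2 EV/cell ratio on the spike-in scale in shCTR (x axis) and in shPCBP2 (y axis) of the 180 tested miRNAs, with the medians as dashed lines and equality as a dotted line. miR-148a-3p (2.70 and 4.39) lies with the few miRNAs above 0, and miR-148b-3p (-5.40 and -6.16) and miR-152-3p (-4.04 and -5.15) lie near the medians of -4.93 and -4.90.

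In shPCBP2, the EV/cell difference had the same direction for each member. miR-148a-3p had 0.397 and 1.80 spike-in RPM in cells and 25.7 and 20.4 in EVs, which gave a log2 EV/cell ratio of 4.39 with a standard error of 1.09 (adjusted p = 0.0113, edgeR). Without cell shPCBP2 replicate 1, in which it had 7 counts, the ratio was 3.68 and the adjusted p 0.0504 (edgeR), and without cell shPCBP2 replicate 2 it was 5.84. miR-152-3p had 307 and 417 in cells and 8.07 and 12.2 in EVs, a log2 ratio of -5.15 (standard error 0.51, adjusted p = 0.000133, edgeR). miR-148b-3p had 235 and 279 in cells and 0.0266 and 7.14 in EVs, a log2 ratio of -6.16 (standard error 2.12, adjusted p = 0.0403, edgeR). So 1 member was called higher and 2 lower, against 7.78% and 60% of the tested miRNAs (67.8% in either direction). Again no groups overlapped, as held for 12.2% of the tested miRNAs with EVs higher and 80% with EVs lower.

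The call of miR-148b-3p in shPCBP2 was the least firm. Its adjusted p was between 0.0679 and 0.0989 when any of the 4 cell libraries was left out (edgeR), 0.0613 with the replicate number as a block, and 0.0636 with only the 4 shPCBP2 libraries in the fit. Its log2 ratio was -12.96 without EV shPCBP2 replicate 2, which leaves the library with 1 count, and -5.17 without EV shPCBP2 replicate 1. For 1 count the exact 95% Poisson interval is 0.0253 to 5.57 counts, or 0.000674 to 0.148 spike-in RPM, far below the 7.14 of the other replicate. With the 3 other scalings its log2 ratio was -1.53 to -1.001 and that of miR-152-3p -0.57 to 0.03, and neither was called.

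Next, shPCBP2 was compared with shCTR in cells. No tested miRNA was called with edgeR (0%), while 25 had an unadjusted p under 0.05 and DESeq2 called 18, limma voom 16 and edgeR 39 with only the 4 cell libraries, none of them a member. miR-148a-3p was lower in both shPCBP2 libraries than in both shCTR libraries, with a log2 change of -1.64 (standard error 0.97, 95% interval -4.02 to 0.73, adjusted p = 0.566, edgeR). This change was -0.94 without cell shPCBP2 replicate 1 and -3.10 without cell shPCBP2 replicate 2. miR-148b-3p was lower in both shPCBP2 libraries as well, with a log2 change of -0.42 (standard error 1.69, adjusted p = 0.943, edgeR), near the median of -0.49 of all tested miRNAs, and with TMM its sign was positive (0.085). The cell groups did not overlap in this direction for 66.7% of the tested miRNAs, and for 2.22% in the other. For miR-152-3p they overlapped, and the log2 change was -0.09 (standard error 0.42, 95% interval -1.13 to 0.94, adjusted p = 0.943, edgeR). The sign of this small change was positive with each of the other 3 scalings (0.19 to 0.39) and without cell shPCBP2 replicate 1 (0.11).

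In EVs, the members differed in how their levels stood in shPCBP2 and shCTR. miR-152-3p had 24.96 and 22.0 spike-in RPM with shCTR and 8.07 and 12.2 with shPCBP2, a log2 change of -1.21 (standard error 0.43, 95% interval -2.26 to -0.16). Its unadjusted p was 0.0303 and the adjusted p was 0.218 (edgeR). DESeq2 gave an adjusted p of 0.00606, and the adjusted p ranged up to 0.551 over 19 alternatives, of which 1 was under 0.05. The groups did not overlap, as was the case in the same direction for 42.2% of the tested miRNAs (5.56% in the other direction). Over all tested miRNAs the log2 change had a median of -0.54. Relative to that median miR-152-3p was at -0.67, and between -0.71 and -0.68 with the other scalings.

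miR-148a-3p had 19.7 and 24.97 with shCTR and 25.7 and 20.4 with shPCBP2, and the groups overlapped. Its log2 change was 0.04 (standard error 0.94, 95% interval -2.25 to 2.34, adjusted p = 0.995, edgeR), and its sign was negative without EV shCTR replicate 1 (-0.12) or EV shPCBP2 replicate 1 (-0.13). The interval is wide in both directions. Relative to the median of all tested miRNAs, miR-148a-3p was at 0.58, and between 0.51 and 0.54 with the other scalings. miR-148b-3p had 11.4 and 4.88 in EVs with shCTR and 0.0266 and 7.14 with shPCBP2, which gave a log2 change of -1.18 (standard error 1.72, adjusted p = 0.818, edgeR). Its groups overlapped, since EV shPCBP2 replicate 2 lay between the shCTR libraries, and the change was -0.19 without EV shPCBP2 replicate 1 and -7.99 (adjusted p = 0.0185, edgeR) without EV shPCBP2 replicate 2. No member was called in EVs by edgeR with all libraries, against 7.22% of the tested miRNAs (1.67% higher and 5.56% lower).

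The EV/cell ratio was then compared between shPCBP2 and shCTR, to ask whether export differs when PCBP2 is silenced. For miR-148a-3p the log2 change of the ratio was 1.69 (standard error 1.35, 95% interval -1.59 to 4.97, adjusted p = 0.992, edgeR). On the spike-in scale it was composed of a lower fitted cell level and a nearly equal EV level. For miR-152-3p it was -1.12 (standard error 0.60, 95% interval -2.59 to 0.35, adjusted p = 0.731, edgeR), composed of a lower EV level and a nearly equal cell level. For miR-148b-3p it was -0.77 (standard error 2.40, 95% interval -6.60 to 5.07, adjusted p = 0.992, edgeR). The change of miR-148b-3p was 0.23 without EV shPCBP2 replicate 1 and -7.57 (adjusted p = 0.0260, edgeR) without EV shPCBP2 replicate 2. With all libraries, no member was called, against 2.22% of the tested miRNAs (0.556% higher and 1.67% lower). The directions of miR-148a-3p and miR-152-3p were kept in 17 of 17 and 18 of 18 alternatives, in none of which the adjusted p was under 0.05. The study used DESeq2 for this change, with a cutoff on the log2 change and a more lenient p-value cutoff than here. With DESeq2's likelihood ratio test, miR-152-3p was at -1.12 (unadjusted p = 0.0236, adjusted p = 0.216). This log2 change and the unadjusted p lay within the cutoffs stated by the study, toward a lower ratio, and the adjusted p did not. The unadjusted p of that test was 0.227 for miR-148a-3p and 0.745 for miR-148b-3p.

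**Figure D4:**
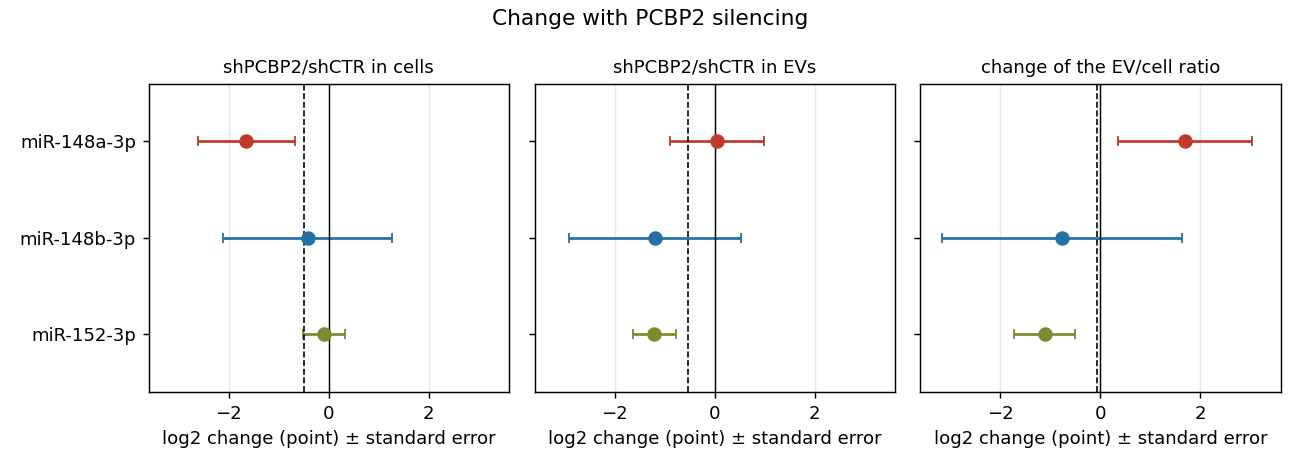
Log2 change with PCBP2 silencing of each member in cells, in EVs and in the EV/cell ratio. Points are fitted values, bars are standard errors, the solid line is 0 and the dashed line the median of the 180 tested miRNAs (-0.49, -0.54 and -0.08); the bars of miR-148b-3p are the widest of the 3 in each panel.

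The opposite arms of the hairpins were nearly absent. miR-148a-5p and miR-152-5p had 0 counts in all 8 libraries, which allows up to 3 counts per library, so the EV reads of miR-148a-3p came with no detectable reads of its partner arm. miR-148b-5p had 1 and 28 counts with shCTR and 31 and 19 with shPCBP2 in cells, and 0 in the 4 EV libraries.

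The patterns most like those of the members were found by Pearson's r of the log2 level over the 8 libraries, given as a description because the libraries share the difference between EVs and cells. For miR-148a-3p they were miR-143-3p (0.952), abundant in mesenchymal cells, and the erythroid miR-486b-5p (0.944) and miR-486a-5p (0.941), whose near-identical copies share reads. For miR-152-3p they were miR-106b-5p (0.996), miR-31-5p (0.996) and miR-181d-5p (0.995), all of them more abundant in cells. For miR-148b-3p they were miR-30e-5p (0.995), miR-1983 (0.991) and miR-20b-5p (0.943), which like miR-148b-3p had 0 or 1 count in EV shPCBP2 replicate 1.

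Markers of blood cells were higher in EVs than in cells, as was miR-148a-3p. Of 5 erythroid miRNAs, miR-451a, miR-144-3p and miR-144-5p had no reads in cells, and the summed level of the list was 7.65 to 22.6 spike-in RPM in cells and 1879 to 2385 in EVs. Of 4 leukocyte miRNAs, miR-142a-3p and miR-142a-5p had no reads in cells, and the summed level was 0.786 to 5.05 in cells and 234 to 422 in EVs. In cells, the sums of both lists were lower in shPCBP2 than in shCTR, as was the level of miR-148a-3p. This direction was common, since 66.7% of the tested miRNAs were lower in shPCBP2 cells without overlap of the groups. The sum of the hepatocyte markers was lower as well, at 18677 to 20407 in shCTR cells and 13024 to 17055 in shPCBP2 cells. In EVs both sums were lower in shPCBP2 as well (erythroid 2184 to 2385 in shCTR and 1879 to 1907 in shPCBP2, leukocyte 292 to 422 and 234 to 275), whereas the levels of miR-148a-3p overlapped. Of the tested miRNAs, 42.2% were lower in shPCBP2 EVs without overlap of the groups. The endothelial markers miR-126a-3p and miR-126a-5p summed to 110 to 170 in cells and 101 to 187 in EVs. Their log2 EV/cell ratios in shCTR were -0.90 and 1.44, and neither was called. Both lay above the median of -4.93 of all tested miRNAs. The part of these cell types, or of the medium, in the EV level of miR-148a-3p was not tested.

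Other miRNAs that regulate the same processes were examined as lists. Of 8 miRNAs known to act on DNA methyltransferases or on the histone methyltransferase EZH2, 6 could be tested, and their EV/cell ratio in shCTR was called higher for 1 (miR-143-3p) and lower for 4, with a median log2 ratio of -4.13 against -4.93 for all tested miRNAs. Of these, 6.67% were called higher and 59.4% lower. The most abundant, miR-26a-5p, miR-26b-5p and miR-29a-3p, had log2 EV/cell ratios of -4.20, -4.07 and -6.08 in shCTR, of which the first 2 are near that of miR-152-3p. In EVs, miR-29a-3p was the 1 miRNA of this list that was called between shPCBP2 and shCTR, with a log2 change of -1.56 (adjusted p = 0.0333, edgeR), where 5.56% of the tested miRNAs were called lower. miR-29b-3p had a larger log2 change of -1.86 that was not called (adjusted p = 0.0662, edgeR). Of 9 regulators of the LDL receptor or ABCA1, 5 could be tested, and 4 were called lower and none higher in EVs than in cells in shCTR, with a median of -5.22, to be read against the same shares. miR-27a-3p, miR-27b-3p and miR-106b-5p had log2 EV/cell ratios of -6.84, -7.22 and -5.22 in shCTR. No miRNA of either list had a called change of the EV/cell ratio with PCBP2 silencing, and no miRNA of the second list was called in EVs.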

How the data were processed

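Small RNA of 3A cells and their EVs was sequenced after addition of the cel-miR-39 spike-in. Per the paper's methods, the authors trimmed adapters, removed short or low-quality reads, kept forward reads, and ran mirPRo, which uses NovoAlign, against hairpins of miRBase to which the spike-in was added. The authors deposited raw counts of reads per mature miRNA; the largest counts carry 6 significant digits. The genome build is not given in the sources used here, and coordinates are those of RefSeq and GENCODE for GRCm38.

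Samples were grouped by their titles. miRNAs with at least 1 read in 2 cell and 2 EV libraries were tested with edgeR 4.0.16 in R 4.3.3, taking the spike-in reads of each library as its size, with a term for each condition and a prior count of 0.125. p-values of the 180 tested miRNAs were adjusted together (Benjamini-Hochberg), and called means an adjusted p under 0.05. Standard errors come from the F statistic and are approximate, and 95% intervals of log2 changes are 2.44 standard errors to each side. The fit was tested on simulated counts for the change of the EV/cell ratio only, with the same fitted spread for all miRNAs. Few of the changed miRNAs were called there. The other comparisons were not simulated, and a missed threshold does not show that levels were equal. DESeq2 1.42.0, limma 3.58.1 and other settings were tried as alternatives. An exact permutation test of 2 against 2 libraries cannot go below 0.333. Likeness was computed with 0.5 counts added. Members and lists were chosen with earlier results of these data known. The named miRNAs are the members, their opposite arms, the 3 most alike miRNAs of each member and at most the 3 most abundant of each list; others were named after their values were seen.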

Additional observations from a re-analysis of the deposited data

Results flagged for a closer look

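miR-148b-5p, the opposite arm of the miR-148b hairpin, lay outside the tested miRNAs and was picked out because it had more reads than a count of 0 allows, with at most 31 counts in a library (cell shPCBP2 replicate 1). It had no reads in EVs.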

How the results depend on the processing

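Among 18 alternatives, the EV/cell ratio of miR-148a-3p in shCTR passed the threshold with TMM (7.46), median-of-ratios scaling (7.48), scaling by mouse miRNA reads (7.69), DESeq2 (2.70), robust estimation (2.70) and only the 4 libraries compared (2.70), and ranged from 2.41 to 3.06 with a library left out. In shPCBP2 it ranged from 3.68 to 5.84 with a library left out. That of miR-148b-3p passed in shCTR with no filter (-5.40), DESeq2 (-5.40), limma voom (-5.50) and only the 4 libraries compared (-5.40). It moved toward 0 and was not called with TMM (-0.65), median-of-ratios scaling (-0.67) and scaling by mouse miRNA reads (-0.45). With a library left out it ranged from -6.13 to -4.91. In shPCBP2 it lost its call with TMM (-1.53), median-of-ratios scaling (-1.32), scaling by mouse miRNA reads (-1.001), only the 4 libraries compared (-6.16) and the replicate block (-6.51), and ranged from -12.96 to -5.17 with a library left out. That of miR-152-3p changed sign in shCTR with TMM (0.73), median-of-ratios scaling (0.74) and scaling by mouse miRNA reads (0.95). In shPCBP2 it lost its call with the first 2 scalings (-0.57 and -0.37) and changed sign with the third (0.027). In cells, the change of miR-148b-3p was 0.085 with TMM, and that of miR-152-3p was 0.39, 0.31 and 0.19 with the 3 scalings and between -0.33 and 0.11 with a library left out. In EVs, the change of miR-152-3p passed with DESeq2 (-1.21), that of miR-148a-3p ranged from -0.13 to 0.22 and that of miR-148b-3p from -7.99 to -0.19 with a library left out. The change of the EV/cell ratio of miR-148b-3p ranged from -7.57 to 0.23 in the same way. With the 3 scalings, the median of all tested miRNAs moved as given above in shCTR, to -0.34, -0.13 and 0.30 for the EV/cell ratio in shPCBP2, and from -0.49 to -0.019, -0.096 and -0.22 in cells; the causes of other changes were not tested. The share of miR-148a-3p in the family differed by 44.6 to 58.2 percentage points with a library left out, by 52.3 with the 5p arms added, and by 8.82 on the log2 odds scale.

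The replicate numbers are those of the sample titles, and the column names number the shPCBP2 samples differently, so whether the numbers pair samples is not known. The differences between replicates 1 and 2 correlated between conditions with r from -0.12 to 0.21 over 113 miRNAs, and no pairing was assumed. The replicate block changed no other call of a member than that of miR-148b-3p given above, and moved the number of called miRNAs in EVs from 13 to 2 and for the change of the EV/cell ratio from 4 to 1. A filter of at least 10 counts in all libraries left 113 miRNAs, of the members only miR-152-3p. Over all alternatives, the number of called miRNAs was 75 to 294 against 119 for the EV/cell ratio in shCTR, 86 to 294 against 122 in shPCBP2, 1 to 27 against 13 in EVs, 0 to 39 against 0 in cells and 0 to 14 against 4 for the change of the ratio. With TMM, median-of-ratios scaling and scaling by mouse miRNA reads, the calls of the EV/cell ratio in shCTR were 42 higher and 40 lower, 40 and 36, and 43 and 32, against 12 and 107, and those in shPCBP2 were 42 and 45, 45 and 41, and 54 and 35, against 14 and 108. A left-out library leaves a lone sample that is assumed to vary like the other groups. A prior count of 2 leaves the p-values unchanged. Depth limits miR-148a-3p in cells, where it had 7 to 75 counts, and miR-148b-3p in EVs.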

Other observations

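Other miRNAs than miR-148b-3p were nearly absent from an EV library as well. At most 3 counts in an EV library, with at least 100 in each of the other 3, were found for 0 of 180 tested miRNAs in EV shCTR replicate 1, 4 in EV shCTR replicate 2, 2 in EV shPCBP2 replicate 1 and 4 in EV shPCBP2 replicate 2. In EV shPCBP2 replicate 1, these were miR-148b-3p and miR-365-2-5p. Among the tested miRNAs, 53 had 0 reads in at least 1 EV library.

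The letters of the family's seed also open 7 other mature sequences of the 1679, among them miR-130a-3p, miR-130b-3p and miR-301a-3p, but from base 1 instead of base 2, so that their own seed is shifted by a base. miR-130b-3p, which is on the list of LDL receptor and ABCA1 regulators, stood at -4.86 in shCTR and -5.03 in shPCBP2 for the log2 EV/cell ratio, each with a standard error of 0.52. Its fitted level was higher in shPCBP2 in both compartments, by 0.73 (standard error 0.44) in cells and 0.55 (standard error 0.44) in EVs on the log2 scale, and neither change passed the correction (adjusted p = 0.570 and 0.631, edgeR).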
